A study of Mus musculus with 8 samples.

Results

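Genes known as markers of the interfollicular basal layer of mouse epidermis, together with the metallothioneins, were examined in 3 sorted fractions of back-skin keratinocytes. The list held 10 genes, picked by name: the surface antigens Ly6a, Ly6c1, Ly6d and Ly6e, the growth regulators Fgfbp1, Thbs1 and Dlk2, and the metallothioneins Mt1, Mt2 and Mt4. Of these 10 genes, 8 had a probe under their symbol in the platform annotation, 9 probes in all because Ly6d has 2, out of 16593 genes with a probe. All 8 were detected on at least 2 of the 8 arrays and were therefore among the 9545 genes tested. Ly6a and Dlk2 were not analysed here.

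All mice were adult Gli1-eGFP/+ animals on an outcrossed Swiss Webster background, in telogen, the resting phase of the hair cycle. The eGFP gene sits at Gli1, a target and effector of hedgehog signalling, and every group carried this reporter. Living single cells that stained for α6 integrin, a basal keratinocyte marker, were divided into 3 groups. Gli1+ cells were GFP-positive (2 arrays), CD34+ cells were GFP-negative and bore the bulge antigen CD34 (3 arrays), and IFE cells were GFP-negative and CD34-negative (3 arrays). The IFE group was defined by what it lacked, and per the labels it held infundibulum as well as interfollicular epidermis. Each replicate started from 2 pooled mice, and the groups of one replicate number came from the same pool. The Gli1+ sample of replicate 1 was not hybridised because of its RNA quality.

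Ly6 proteins are small cell-surface proteins held by a lipid anchor, and mouse haematologists use several of them to sort lymphocytes and stem cells. Ly6a, also called Sca-1, is used to tell interfollicular basal cells from bulge stem cells, and Ly6e is inducible by interferon. Metallothioneins are cysteine-rich proteins that bind zinc and copper. Mt1 and Mt2 lie next to each other and are switched on by metals through the sensor Mtf1, and by glucocorticoids and stress, while Mt4 is known from stratified epithelia.

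At the RNA level the sort was visible against IFE cells. Gli1 had a mean normalised log2 intensity of 8.59 in Gli1+, 7.61 in CD34+ and 5.13 in IFE cells, and Cd34 one of 8.33, 8.66 and 5.73. Neither gene separated Gli1+ from CD34+ cells past the threshold given below. That difference was 0.98 ± 0.42 for Gli1 (limma adjusted p = 0.258) and -0.33 ± 0.35 for Cd34 (limma adjusted p = 0.665). In Gli1+ against IFE cells Gli1 and Cd34 passed (limma adjusted p = 0.00751 and 0.00828), but not with array weights (0.0645 and 0.0726). With only the groups compared in the fit, the Cd34 call was lost there too. Gli1 was higher on CD34+ replicate 2 (8.42) than on Gli1+ replicate 3 (8.36). The basal keratin genes Krt14 (11.93, 12.11 and 12.50) and Krt5 (12.35, 12.71 and 12.40) were bright in all groups, and neither passed the test in any comparison. Between 9925 and 12601 probes were detected per array. The Gli1+ arrays stood apart from each other, with a correlation across genes of 0.82, against 0.934 to 0.945 among CD34+ and 0.943 to 0.95 among IFE arrays. For the 8 tested genes of the list, the Gli1+ differences below are therefore also given for either Gli1+ array taken alone. For Ly6d this covers the brighter of its 2 probes.

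Levels are log2 intensities after background correction and quantile normalisation, on which a difference of 1 is a doubling. A difference counts as past the threshold when its limma p-value, adjusted by Benjamini-Hochberg over all 9545 genes, is under 0.05. Errors of differences are standard errors (SE), and the arrays of each group number 2, 3 and 3 for Gli1+, CD34+ and IFE throughout.

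Ly6e was 3.09-fold lower in CD34+ bulge cells than in IFE cells and was the 1 member past the threshold in any comparison. Ly6d and Fgfbp1 had CD34+ levels 2.32-fold and 2.14-fold below IFE cells and missed it, and no metallothionein passed. In CD34+ against IFE cells 1 of 8 members was lower and 7 did not pass, where 4.80% of all genes passed. All 8 differences were negative, with a median of -0.70 against -0.01 over all genes. An unadjusted p under 0.05 was reached by 3 members, and by 16.9% of all genes. For 5 members the CD34+ and IFE arrays did not overlap, as for 27.7% of all genes. In Gli1+ against IFE cells 0 of 8 passed in the limma fit (2.16% of all genes), 1 had an unadjusted p under 0.05 (17.6% of all genes), and 3 did not overlap (31.6% of all genes). In Gli1+ against CD34+ cells 0 of 8 passed (1.42% of all genes), 2 had an unadjusted p under 0.05 (17.5% of all genes), and 2 did not overlap (31.4% of all genes). With the replicate pool as a block, the count of all genes past the threshold fell from 206 to 67 in Gli1+ against IFE cells and from 136 to 1 in Gli1+ against CD34+ cells. The list was known to hold genes of the interfollicular layer, so the shared direction in CD34+ cells is not independent evidence.

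**Figure D1:**
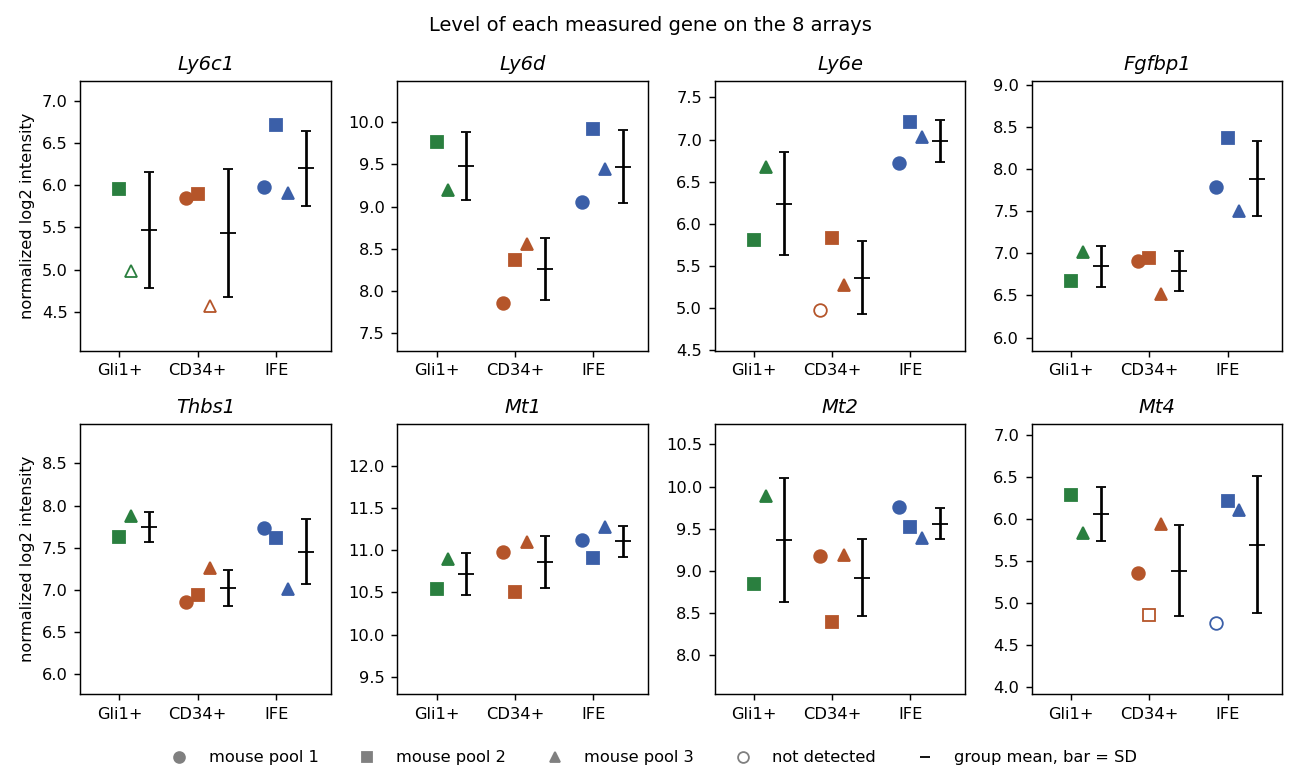
Normalised log2 intensity of the 8 measured genes (vertical axis) on each array, by sorted group (horizontal axis), with symbols for the mouse pool, open symbols where the probe was not detected, and the group mean ± SD beside the points. Each panel spans the same log2 distance. Ly6d, Ly6e and Fgfbp1 are lower on all 3 CD34+ arrays than on all 3 IFE arrays, while Mt1 lies between 10.51 and 11.28 on all 8.

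Ly6e, an interferon-inducible surface protein, fell in CD34+ cells. Its log2 intensity was 6.72, 7.21 and 7.03 on the IFE arrays of replicates 1 to 3 and 4.98, 5.83 and 5.27 on the CD34+ arrays. The groups did not overlap, and CD34+ replicate 1 was the lone array on which the probe was not detected. The difference was -1.63 ± 0.34, a 3.09-fold lower level in CD34+ cells (limma adjusted p = 0.0257), and it was -1.74, -1.38 and -1.76 within pools 1, 2 and 3. The CD34+ values lay near the lowest detected log2 values on those arrays, 5.08 to 5.13. Without background correction the difference was -0.72 (adjusted p = 0.0377), and in the deposited log2 values -0.62 (adjusted p = 0.103). The gene missed the threshold without CD34+ replicate 1 or 3 or any 1 IFE array, at limma adjusted p up to 0.108 without IFE replicate 3.

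In Gli1+ cells Ly6e was 5.81 in replicate 2 and 6.67 in replicate 3. Replicate 2 lay inside the CD34+ range, and replicate 3 lay above it and below all 3 IFE arrays. The differences were -0.75 ± 0.38 against IFE cells (adjusted p = 0.351) and 0.88 ± 0.38 against CD34+ cells (adjusted p = 0.272). Left with Gli1+ replicate 3 alone, the value was -0.32 against IFE and 1.31 against CD34+ cells, and with replicate 2 alone it was -1.18 and 0.45.

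Ly6d, a surface antigen of keratinocytes that is also found on lymphocytes, was read by 2 probes that gave different sizes. On the brighter probe, which stands for the gene, the log2 intensity was 9.06, 9.93 and 9.44 on the IFE arrays, 7.85, 8.37 and 8.56 on the CD34+ arrays, and 9.77 and 9.19 on the Gli1+ arrays. The CD34+ arrays lay below all 5 others, whereas the Gli1+ arrays lay inside the IFE range. CD34+ cells differed from IFE cells by -1.21 ± 0.34 (2.32-fold lower, limma adjusted p = 0.0764), which misses the threshold, and by -1.20, -1.56 and -0.88 within pools 1 to 3. The other probe gave 7.75, 8.90 and 7.99 in IFE cells and 6.07, 6.92 and 6.30 in CD34+ cells, a difference of -1.78 ± 0.37 that passed when every probe was tested on its own (adjusted p = 0.0262). With the mean of both probes Ly6d also passed (adjusted p = 0.0252). With only the CD34+ and IFE arrays in the fit it passed as well (0.0395). Leaving out either Gli1+ array repeated this last fit for CD34+ against IFE cells. Counting these repeats, Ly6d passed in 7 of 20 alternatives. It missed the threshold without any 1 CD34+ or IFE array, at adjusted p = 0.102 to 0.243, and with median centring (0.194).

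Between Gli1+ and IFE cells the brighter Ly6d probe gave a difference of 0.01 ± 0.37 (adjusted p = 0.995) and a 95% interval from -0.83 to 0.84, which leaves room for a difference of up to 1.79-fold. Taken alone, replicate 2 gave 0.29 and replicate 3 gave -0.28. On the dimmer probe the same comparison gave -0.57 ± 0.42. Against CD34+ cells the Ly6d difference was 1.22 ± 0.37 on the brighter and 1.21 ± 0.42 on the dimmer probe, with limma adjusted p = 0.137 in the test of genes and 0.184 in the test of probes, and neither passed. With replicate 3 or replicate 2 alone the brighter probe gave 0.93 or 1.51. The 2 Gli1+ arrays did not overlap with the 3 CD34+ arrays on this gene.

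**Figure D2:**
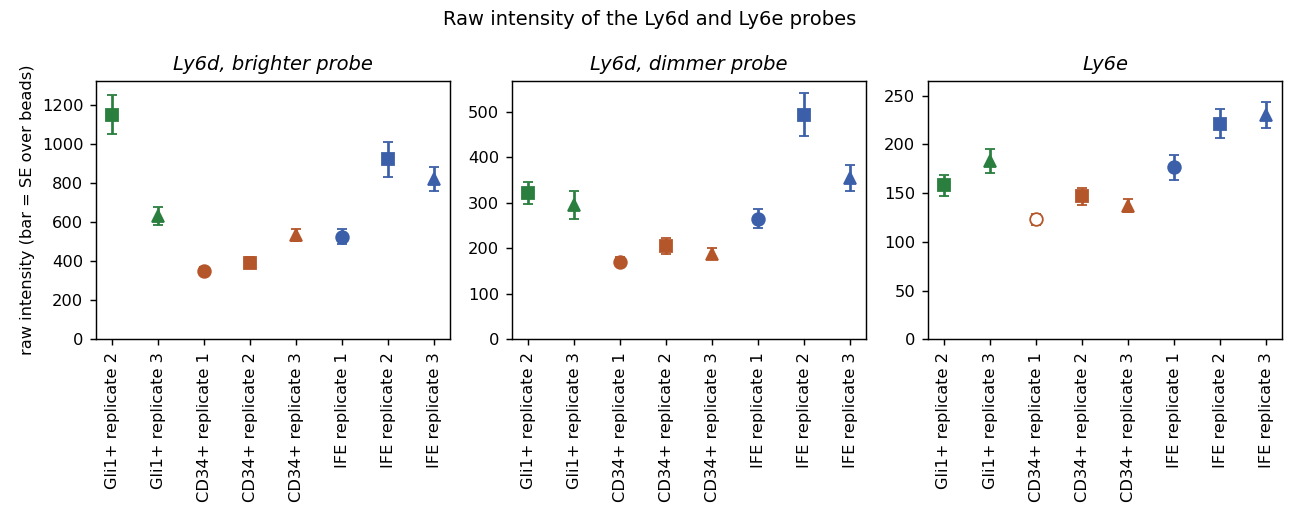
Raw intensity of the 2 Ly6d probes and the Ly6e probe (vertical axis, linear from 0, not background-corrected) on each array, with bars for the standard error over beads and an open symbol where the probe was not detected. Before normalisation the brighter Ly6d probe overlaps between CD34+ replicate 3 (533.9) and IFE replicate 1 (525.4), and the dimmer probe, from 169.8 to 205.0 in CD34+ and from 264.8 upward in IFE cells, does not.

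Ly6c1, known as a marker of monocytes, endothelium and some keratinocytes, was near the limit of detection. Its log2 intensity was 5.98, 6.71 and 5.91 in IFE cells, 5.85, 5.89 and 4.56 in CD34+ cells, and 5.96 and 4.98 in Gli1+ cells. The probe was not detected on replicate 3 of either CD34+ or Gli1+ cells, and these 2 arrays set the wide spread. CD34+ cells differed from IFE cells by -0.76 ± 0.44 (adjusted p = 0.439) and Gli1+ cells by -0.73 ± 0.49 (adjusted p = 0.492). The Gli1+ value was -0.24 on replicate 2 taken alone and -1.22 on replicate 3, where the probe was not detected. Against CD34+ cells these arrays gave 0.52 and -0.45. Ly6c2 is a near-identical neighbour with no probe under its symbol, and whether the Ly6c1 probe also reads it was not tested.

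Of 33 further genes of the Ly6 and urokinase receptor family, 26 had a probe and 11 were detected on enough arrays to be tested. Lypd6, a membrane-anchored protein known from zebrafish to enhance Wnt signalling, rose in CD34+ cells over IFE cells by 1.95 ± 0.29 (adjusted p = 0.00448) and was lower in Gli1+ than in CD34+ cells by -1.87 ± 0.32 (adjusted p = 0.03, and 0.0991 with the replicate block). The second call was lost without Gli1+ replicate 3 or any 1 CD34+ or IFE array, at adjusted p up to 0.197 with array weights. The remaining 10 did not pass in either of those comparisons, and 0 of 11 passed in Gli1+ against IFE cells. The family had a median difference of -0.24 in CD34+ against IFE cells, beside -0.01 over all genes. Of the genes next to Ly6e in the cluster on chromosome 15, Ly6m differed by -0.087 ± 0.51 between CD34+ and IFE cells (adjusted p = 0.961), and Ly6i was detected on fewer than 2 arrays and was not tested.

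Interferon-response genes were compared because Ly6e belongs to them. Of 16 listed, 10 were tested: 2 were lower in CD34+ than in IFE cells and 8 did not pass, with a median of -0.35. The lower ones were Psmb8, an immunoproteasome subunit (-1.60 ± 0.35, adjusted p = 0.0305, and 0.0549 with the replicate block), and the transcription factor Irf1 (-1.51 ± 0.32, adjusted p = 0.0257). Both calls were lost without CD34+ replicate 2 or 3 or any 1 IFE array, at adjusted p up to 0.12 and 0.111. In both comparisons with Gli1+ cells 0 of 10 passed. The summed intensity of the 10 genes ranged from 3606 to 4281 on CD34+, from 5498 to 7048 on IFE and from 3913 to 5581 on Gli1+ arrays. The part of interferon response in the Ly6e difference was not tested.

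Fgfbp1, a secreted carrier that releases fibroblast growth factors from the matrix, had a log2 intensity of 7.79, 8.37 and 7.50 on the IFE arrays, 6.91, 6.94 and 6.52 on the CD34+ arrays, and 6.67 and 7.02 on the Gli1+ arrays. All 3 IFE arrays lay above all 5 others. The difference was -1.10 ± 0.31 in CD34+ cells (2.14-fold lower, limma adjusted p = 0.0826) and -1.04 ± 0.35 in Gli1+ cells (2.06-fold lower, adjusted p = 0.149). These 2 comparisons share the IFE arrays, and neither passed the threshold. Within pools the CD34+ difference was -0.88, -1.43 and -0.98, and the Gli1+ difference was -1.70 in pool 2 and -0.48 in pool 3. Between Gli1+ and CD34+ cells the difference was 0.06 ± 0.35, with an interval from -0.72 to 0.83. Replicate 2 taken alone gave -1.21 against IFE and -0.12 against CD34+ cells, and replicate 3 gave -0.87 and 0.23. In CD34+ against IFE cells Fgfbp1 passed the threshold with estimated array weights (adjusted p = 0.0386) and with only the CD34+ and IFE arrays fitted (0.0487). Leaving out either Gli1+ array repeated this last fit. Counting these repeats, Fgfbp1 passed in 4 of 20 alternatives, and it reached an adjusted p of 0.25 without IFE replicate 2.

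The list beside Fgfbp1 held 15 genes: fibroblast growth factors, their receptors, a related carrier and proteoglycans. Of these 15 genes, 11 were tested, 2 were higher in CD34+ than in IFE cells and 9 did not pass. The higher ones were Fgf1, a ligand that Fgfbp1 binds (2.49 ± 0.35, adjusted p = 0.00336), and the receptor Fgfr1 (2.16 ± 0.32, adjusted p = 0.00423). Fgfr1 was also higher in Gli1+ than in IFE cells (2.08 ± 0.35, adjusted p = 0.0213), the 1 of 11 past the threshold there, and missed it without any 1 IFE array, at adjusted p up to 0.121 with array weights. Fgf2, Fgf7, Fgf10 and Fgf22 were detected on fewer than 2 arrays and were not tested.

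Thbs1, the matrix glycoprotein thrombospondin-1, gave 7.74, 7.61 and 7.01 in IFE cells, 6.86, 6.94 and 7.26 in CD34+ cells, and 7.62 and 7.87 in Gli1+ cells. The IFE arrays overlapped with both other groups, while the Gli1+ arrays lay above the CD34+ arrays. The differences were -0.43 ± 0.29 for CD34+ against IFE (adjusted p = 0.529), 0.29 ± 0.33 for Gli1+ against IFE (adjusted p = 0.7) and 0.72 ± 0.33 for Gli1+ against CD34+ cells (adjusted p = 0.29). Replicate 2 taken alone gave 0.17 against IFE and 0.60 against CD34+ cells, and replicate 3 gave 0.42 and 0.85. Of 12 tested genes of thrombospondins and their receptors, Thbs2 was lower in CD34+ than in IFE cells (-2.11 ± 0.41, adjusted p = 0.0182) and 11 did not pass. That call was lost without CD34+ replicate 1 or 2 or any 1 IFE array, at adjusted p up to 0.0861 without IFE replicate 1.

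Among 7 tested genes of the Dlk and Notch list, which stands beside the unmeasured Dlk2, the receptor Notch1 was lower in CD34+ cells (-1.23 ± 0.27, adjusted p = 0.0312, and 0.0639 with the replicate block). The call was lost without any 1 CD34+ or IFE array, at adjusted p up to 0.173 in the deposited values. The other 6 did not pass, and 0 of 7 passed in either comparison with Gli1+ cells.

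**Figure D3:**
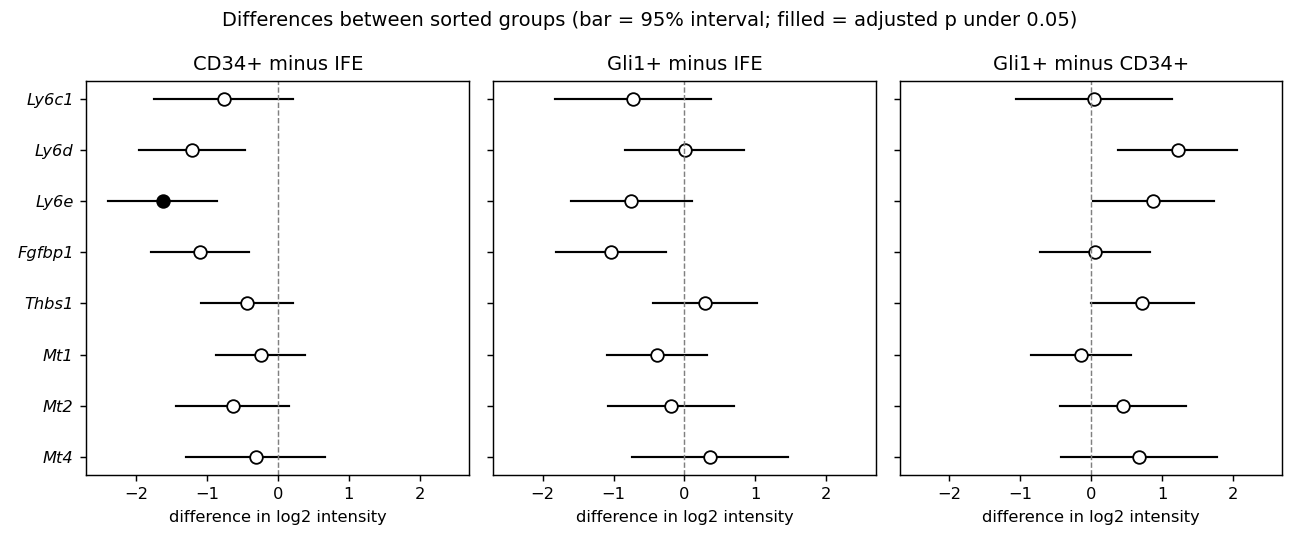
Difference in log2 intensity (horizontal axis) of the 8 measured genes (vertical axis) for each pair of groups, with 95% confidence intervals of the limma fit and a filled symbol where the adjusted p is under 0.05. The intervals of Ly6d, Ly6e and Fgfbp1 lie below 0 in CD34+ minus IFE, and those of Mt1, Mt2 and Mt4 include 0 in all 3 comparisons.

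The metallothioneins showed no difference past the threshold. Mt1 was bright on every array, at 11.12, 10.91 and 11.28 in IFE cells, 10.98, 10.51 and 11.10 in CD34+ cells, and 10.55 and 10.89 in Gli1+ cells. These values spanned 1.71-fold over all 8 arrays, and 90.8% of tested genes had a larger SD over the arrays. The difference was -0.24 ± 0.28 in CD34+ against IFE cells (limma adjusted p = 0.758), with an interval from -0.87 to 0.39 that leaves room for at most a 1.83-fold change. In Gli1+ cells it was -0.39 ± 0.31 against IFE (adjusted p = 0.575) and -0.14 ± 0.31 against CD34+ cells (adjusted p = 0.851). Replicate 2 taken alone gave -0.56 and -0.32, and replicate 3 gave -0.21 and 0.030. Mt1 was lower in the CD34+ than in the IFE array of the same pool by small amounts, -0.14, -0.40 and -0.18.

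Mt2, the neighbouring metallothionein, varied more. Its log2 intensity was 9.75, 9.52 and 9.39 in IFE cells, 9.17, 8.39 and 9.19 in CD34+ cells, and 8.84 and 9.89 in Gli1+ cells. The CD34+ arrays lay below the IFE arrays without overlap, by -0.64 ± 0.36 (1.56-fold lower, adjusted p = 0.419), and the 2 Gli1+ arrays enclosed the IFE range. Gli1+ cells differed from IFE cells by -0.19 ± 0.40 (adjusted p = 0.86). That value was -0.71 on replicate 2 taken alone and 0.33 on replicate 3. Against CD34+ cells the difference was 0.45 ± 0.40 (adjusted p = 0.602), and these arrays alone gave -0.073 and 0.97. On replicate 2 of both CD34+ and Gli1+ cells Mt1 and Mt2 were each at the lowest level of their group. Over the 8 arrays the 2 genes had a Pearson correlation of 0.67. Mt1 and Mt2 are close in sequence, and whether their probes read each other's RNA was not tested.

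Mt4 was dim, at 4.76, 6.21 and 6.11 in IFE cells, 5.35, 4.86 and 5.94 in CD34+ cells, and 6.28 and 5.83 in Gli1+ cells, and was not detected on IFE replicate 1 or CD34+ replicate 2. All 3 groups overlapped. The differences were -0.31 ± 0.44, 0.36 ± 0.49 and 0.67 ± 0.49 for CD34+ against IFE, Gli1+ against IFE and Gli1+ against CD34+ cells, with adjusted p of 0.806, 0.762 and 0.518. Gli1+ replicate 2 taken alone gave 0.59 against IFE and 0.90 against CD34+ cells, and replicate 3 gave 0.14 and 0.45.

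Of 29 listed genes of zinc and copper handling, among them a further metallothionein, Mt3, 21 were tested. In CD34+ against IFE cells 2 were higher, 1 was lower and 18 did not pass. The zinc transporters Slc39a13 (1.77 ± 0.31, adjusted p = 0.012) and Slc39a10 (1.61 ± 0.35, adjusted p = 0.0287) rose. The copper importer Slc31a1 fell, by 1.22 ± 0.28 on the log2 scale in CD34+ cells (adjusted p = 0.0379, and 0.0722 with the replicate block) and by 1.51 ± 0.31 in Gli1+ cells (adjusted p = 0.0458, and 0.122 with the block), where the other 20 did not pass. These calls rest on few arrays: leaving out 1 array ended each of them at least once. Mt3 did not pass in any comparison. It differed by -0.92 ± 0.35 in CD34+ against IFE cells (adjusted p = 0.201) and by 0.62 ± 0.39 in Gli1+ against IFE cells (adjusted p = 0.458). In Gli1+ against CD34+ cells its difference was 1.54 ± 0.39 (adjusted p = 0.0876). Of 8 tested genes of glucocorticoid response, among them the receptor gene Nr3c1, and 10 tested oxidative-stress genes, 0 passed in any of the 3 comparisons. In these lists the median difference lay between -0.36 and 0.18.

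Correlations between members over the 8 arrays ranged widely. Ly6e and Fgfbp1 had a Pearson correlation of 0.81, Ly6d and Ly6e one of 0.76, and Ly6c1 and Fgfbp1 one of 0.72. At the low end, Ly6c1 was at -0.18 with Mt1, -0.10 with Mt2 and -0.03 with Thbs1, and Mt1 and Ly6d were at -0.01. These correlations describe arrays that fall into 3 groups and share pools of mice. By the same measure the genes nearest to Ly6d were Nrarp (0.97), Ckap4 (0.96) and Xpnpep1 (0.95), and those nearest to Fgfbp1 were Acaa1b (0.99), Asns (0.97) and Pcna (0.97). Ddx21, Ppm1b and Dhrs4 were nearest to Mt1 at 0.99, 0.95 and 0.95, Phtf1, Pbk and H2-Q7 to Mt2 at 0.96, 0.96 and 0.93, and Reep1, Mcph1 and Inip to Thbs1 at 0.94, 0.94 and 0.93. These genes were picked as the highest among all tested genes outside the list, over only 8 arrays. High values are bound to occur in such a pick, and shared regulation was not tested.

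Of 15 further genes of basal keratinocytes, among them Krt5, Krt14 and Itga6, 0 passed in any comparison in the limma fit. The medians were -0.07, -0.28 and -0.17 for CD34+ against IFE, Gli1+ against IFE and Gli1+ against CD34+ cells. Every group was sorted for α6 integrin, the product of Itga6, and Krt5 and Krt14 were bright in every group. The list therefore does not hold markers of interfollicular cells alone. Of 10 infundibulum and isthmus genes, Gata6, Defb6 and Krt79 were lower in CD34+ than in IFE cells, 0 were higher, and 0 passed in either comparison with Gli1+ cells. Of 10 tested suprabasal genes, Casp14 and Grhl1 were lower in CD34+ than in IFE cells, with a median of -0.75, and Casp14 was higher in Gli1+ than in CD34+ cells. Each of these calls was lost without at least 1 array. With the replicate block Krt79 (adjusted p = 0.0581) and both Casp14 calls (0.0594 and 0.0774) were lost too. The suprabasal genes summed to between 8450 and 12230 on CD34+, 10320 and 16850 on IFE, and 17280 and 24710 on Gli1+ arrays. Of 13 bulge genes, the sort marker Cd34 among them, 8 were higher in CD34+ than in IFE cells. The largest differences were those of Lgr5 (3.80 ± 0.33), Fzd2 (3.78 ± 0.29), Dkk3 (3.70 ± 0.35) and Postn (3.21 ± 0.29). In Gli1+ against IFE cells 6 were higher, led by Lgr5, Cd34, Dkk3 and Lhx2, and these calls were lost with array weights. Fzd2 was lower in Gli1+ than in CD34+ cells (-1.69 ± 0.32, adjusted p = 0.0431, and 0.101 with the replicate block). In bulk samples such as these, fewer cells of a type and less RNA per cell cannot be told apart.

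Markers of other cells that the sort could hold were also examined. Of 9 endothelial genes with a probe, 2 were tested and 0 passed, and Pecam1, Cdh5, Kdr and Tek were each detected on fewer than 2 arrays. Of 12 T cell and Langerhans cell genes with a probe, 11 were tested and 0 passed in any comparison, with sums from 1555 to 1924 on CD34+, from 1600 to 2171 on IFE and from 1726 to 2764 on Gli1+ arrays. Of 11 fibroblast genes, 4 were tested and all 4 were higher in CD34+ than in IFE cells, with sums from 3080 to 3302 against 297.2 to 614. The Col1a2 call was lost without any 1 CD34+ or IFE array, at adjusted p up to 0.0905. Fbln1 was higher in Gli1+ than in IFE cells (adjusted p = 0.00751, and 0.0694 with array weights). Col6a1 and Sparc were lower in Gli1+ than in CD34+ cells (adjusted p = 0.0291 and 0.0447), and both calls were lost with the replicate block (0.0923 and 0.0991) and without any 1 CD34+ array. Col1a1, Col3a1, Pdgfra and Dcn were detected on fewer than 2 arrays. The part of these cells in the Ly6 differences was not tested.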

How the data were processed

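RNA of 8 sorted samples was extracted with Trizol and labelled with a Nugen kit, per the labels, and hybridised to Illumina bead arrays, 1 per sample. GenomeStudio 2010.3 is named in the submitters' processing notes. Per the file headers, the deposited matrix gives for each of 25697 probes an intensity averaged over beads, its standard error on the same signal scale, a bead count and a p-value for detection. The authors neither corrected the background nor normalised these intensities, per the name of the matrix. The deposited log2 table matched the logarithm of these intensities to 5.5e-05 and served as an alternative. The number of arrays limits the precision. Bead standard errors of the members' probes were between 4.52% and 16.5% of the raw intensity, which still holds the background. Relative to the signal above background they are larger, most so for dim probes. The 4.52% was that of Ly6e on CD34+ replicate 1, where the probe was not detected.

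Intensities were corrected and quantile normalised with neqc (offset 16, with the negative control level estimated from detection p-values) in limma 3.58.1 under R 4.3.3. Probes with a detection p under 0.05 on 2 or more arrays stayed in, 14252 in all, and the brightest probe on average stood for a gene. All 8 arrays were fitted with limma (lmFit, eBayes), 1 mean per group, two-sided, and the procedure was tested on simulated data. Of 23978 probes with a symbol, 23962 matched the reference gene table. The genome build is not given in the sources used here. P-values measure the spread between arrays of the same group, each from a different pool of mice. The main fit held no term for the pool.

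Members and lists were chosen with earlier results of these data known. The text names all members, up to 4 genes of each list that passed, and the 3 genes most correlated with each member detected on every array. Other genes named, among them undetected markers, Ly6i, Ly6m, Mt3 and Nr3c1, were picked with their values in view. Samples of 1 replicate number share a pool of mice, per the series' design text. Across genes, their deviations from the group means correlated at -0.031 to 0.091. Alternatives were other background corrections, normalisations, detection filters and probe rules, the replicate block, array weights, a fit of only the groups compared, and leaving out each array.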

Additional observations from a re-analysis of the deposited data

How the results depend on the processing

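Over 20 alternatives, Ly6e kept its direction in CD34+ against IFE cells and passed the threshold in 14, with differences from -1.86 to -0.62. In this comparison, leaving out either Gli1+ array repeated the fit of only the groups compared, so the 14 count 1 result more than once. The number of members past the threshold there, 1 as reported, was 2 with a normexp offset of 50, without background correction, with the mean of probes and with every probe on its own. It was 3 with array weights and with only the groups compared, 0 with the deposited log2 values, and 0 or 1 with 1 CD34+ or IFE array left out. It stayed at 1 with the replicate block, which changed no member's call. In both Gli1+ comparisons 0 members passed under every alternative.

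The 458 genes past the threshold in CD34+ against IFE cells became 887 with array weights, 820 with only the groups compared and 189 to 251 with 1 CD34+ or IFE array left out. The 206 in Gli1+ against IFE cells became 67 with the replicate block, 3 with array weights, 6 with only the groups compared and 39 to 1233 with 1 array left out. The 136 in Gli1+ against CD34+ cells became 209 without background correction, 1 with the replicate block, array weights or only the groups compared, and 1 to 1196 with 1 array left out. Fits with a lone Gli1+ array assume that it varies like the other groups. Median centring moved the median of all genes in CD34+ against IFE cells from -0.01 to 0.13, and calls there from 281 higher and 177 lower to 310 and 91 (306 and 83 in the deposited values). In Gli1+ against IFE cells 124 higher and 82 lower became 174 and 36 with median centring, 171 and 49 with cyclic loess and 158 and 12 in the deposited values. In Gli1+ against CD34+ cells 55 and 81 became 106 and 82 with cyclic loess and 54 and 50 in the deposited values.

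Differences near 0 changed sign, none of them past the threshold. In Gli1+ against IFE cells, Ly6d was -0.28 with the mean of probes and -0.20 with the replicate block, and ranged from -0.28 to 0.29 with 1 array left out. Mt2 was 0.081 with median centring and 0.049 in the deposited values, and ranged from -0.71 to 0.33 with 1 array left out, and Mt4 from -0.10 to 0.62. In Gli1+ against CD34+ cells, Fgfbp1 was -0.0079 with median centring. With 1 array left out, Fgfbp1 ranged from -0.12 to 0.23, Ly6c1 from -0.45 to 0.52, Mt1 from -0.32 to 0.030 and Mt2 from -0.073 to 0.97. The cause of these changes was not tested. Ly6c1, Mt4 and Ly6e in CD34+ cells lie near the detection limit. The size of the Ly6e difference in CD34+ against IFE cells changed with the background handling. It was -1.63 in the main setting, -1.08 with a normexp offset of 50 and -0.72 without background correction.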
